A study of Macaca mulatta with 27 samples.

Results

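Cadherins and protocadherins are the calcium-dependent adhesion molecules of the cell surface, and their RNA was followed here in rhesus embryonic stem cells before and after 7 reprogramming protocols. The members are the gene symbols that begin with CDH followed by a number or with PCDH, without CDH1 and CDH2, and 49 of the 17967 symbols in the count tables met this rule. They comprise 3 type I classical cadherins, 13 type II classical cadherins, 6 other cadherins, 4 delta-1, 5 delta-2, and 2 other non-clustered protocadherins, and 16 clustered protocadherins. RNA-seq was performed on 27 libraries, 6 of Primed cells and 3 of each of the protocols TL2i, TL-CDK8i, LCDM (EPS), t2iLGöY, 4i/L/b, NHSM-v, and E-NHSM. All of them derive from 1 clonal rhesus line, LyonES-tGFP-(S3). The line holds a CAG-driven tauGFP and a lentiviral STAT3-ERT2, a STAT3 that tamoxifen activates. TL2i cells received tamoxifen, LIF, and inhibitors of MEK and GSK3β, and TL-CDK8i cells received tamoxifen and LIF with CNIO-47799, an inhibitor of CDK8 and CDK19, in place of both inhibitors. The other 5 protocols were run without tamoxifen, the activator of STAT3-ERT2. Whether Primed cells received it, and what the media of Primed cells and these 5 protocols held, is not given in the sources used here. Primed cells were passaged in clumps and reprogrammed cells as single cells, so passaging and protocol cannot be told apart in any comparison with Primed cells.

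Classical cadherins bind the same or a related cadherin on the neighbouring cell and hold the actin cytoskeleton through catenins. Type I members such as E- and N-cadherin make strong junctions of epithelia and neural tissue, and the type II genes are known from the brain, mesenchyme, neural crest, and endothelium. Protocadherins adhere more weakly. The delta group sorts cells in the embryo and the nervous system and binds the WAVE complex, which regulates actin, and the clustered alpha, beta, and gamma genes are chosen promoter by promoter to give neurons their surface identity. Sequences of the genes were not used here.

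Total counts were between 7111886 and 20760914 per library (median 12201171), and 3 counts in a library corresponded to 0.141 to 0.429 CPM, counts per 1000000 on the library sizes scaled by the TMM method. All members together took 0.117 to 0.125% of the counts in Primed libraries, 0.0771 to 0.0824% in E-NHSM, and 0.308 to 0.346% in 4i/L/b. No library was a copy of another: over the 36 pairs within groups, chi-square per gene was 3.98 to 29.8, above the value of 1 that counting noise gives. Nothing in the labels says that libraries of a group came from separate cultures, so p-values measure the spread between libraries only. The labels divide the Primed samples into 2 sets of 3, and 2 samples of the second set carry a protocol name of their own. All 6 bear the same cell type label and were taken as 1 group. Their columns carry the letters J and K, which could not be tied to these sets, and members that differ between the letters are given with the PCDHA5 values. Of the 6 pluripotent markers examined (POU5F1, NANOG, PRDM14, TDGF1, DPPA4, and SALL4) the summed level was 2525 to 2669 CPM in Primed, 2653 to 2749 in E-NHSM, and 970 to 1366 in TL-CDK8i, and from 10.4 to 108 in the libraries of the other 5 protocols, with NANOG and PRDM14 at 0 in all libraries of NHSM-v and NANOG and TDGF1 at 0 in those of t2iLGöY. In bulk RNA, fewer cells of a kind and less RNA per cell cannot be told apart. CPM is not divided by transcript length, so levels are compared between groups and not between genes.

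How widely did these genes differ between each protocol and Primed cells? The 3 libraries of a protocol and the 6 of Primed cells were fitted in edgeR with its quasi-likelihood test, for all genes that passed the count filter, and a gene was called at a Benjamini-Hochberg adjusted p under 0.05. In t2iLGöY cells, 23 members rose and 2 fell among 42 tested, where 54.3% of all genes tested were called (27.1% higher, 27.2% lower). In 4i/L/b cells, 20 rose and 6 fell among 41 (background 55.6%, with 26.6% higher and 29% lower), and in NHSM-v cells 16 rose and 6 fell among 38 (background 58.6%, with 28% higher and 30.6% lower). In LCDM (EPS) cells, 17 rose and 9 fell among 41 (background 57.1%, with 28.2% higher and 28.9% lower), and in TL2i cells 15 rose and 5 fell among 43 (background 50.7%, with 25.6% higher and 25.2% lower). Without TL2i replicate 2, 9 rose and 4 fell. TL-CDK8i cells had 8 members that rose and 6 that fell among 36 (background 46.1%, with 22.3% higher and 23.8% lower). E-NHSM cells had 2 members that rose and 11 that fell among 40 (background 26.2%, with 11.1% higher and 15.1% lower). When all 8 groups shared 1 fit, 6 members rose and 15 fell in E-NHSM, and 14 rose and 8 fell in TL-CDK8i, among 46 tested. The share of all genes called against Primed cells in that fit was not taken, so these numbers cannot be set against the shares above. In the fits of 1 protocol with Primed cells, the called share of the members tested lay near that of all genes. It ranged from 32.5% in E-NHSM to 63.4% in 4i/L/b and LCDM (EPS). The median log2 fold change of the tested members was 1.53 in both t2iLGöY and 4i/L/b, 1.06 in NHSM-v, 0.83 in TL2i and LCDM (EPS), -0.12 in TL-CDK8i, and -0.81 in E-NHSM, against medians of all genes from -0.02 to 0.07.

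Of the 49 members, 45 were tested in at least 1 comparison and 35 in all 7. CDH6, CDH13, and PCDH19 were called in all 7 comparisons, where 7.08% of all genes tested in the 7 comparisons were. No member moved in 1 direction in all 7, since these 3 genes each fell in E-NHSM and rose in others. Of the 35 tested in all 7, 14 rose in at least 1 protocol and fell in at least 1 (background 24.7%). The 7 protocols also differed from one another, with 39 of 46 members called in a test of equality over the protocols (background 85%). A level of at least 5 CPM in 1 or more groups was reached by 38 members, which are described below by subfamily, and all values that follow are CPM unless stated otherwise. Their mean was highest in t2iLGöY for 12 members, in NHSM-v for 7, in 4i/L/b for 6, and in Primed cells for 1, and it was lowest in E-NHSM for 14 and in TL-CDK8i for 11. The 38 were chosen by their level in these same groups, some of them through 1 group alone, so these numbers depend on the choice. No share of all genes was taken beside them. The highest protocol differed from the next in order for 11 of the 38, and the lowest for 16. All comparisons share the Primed libraries.

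**Figure D1:**
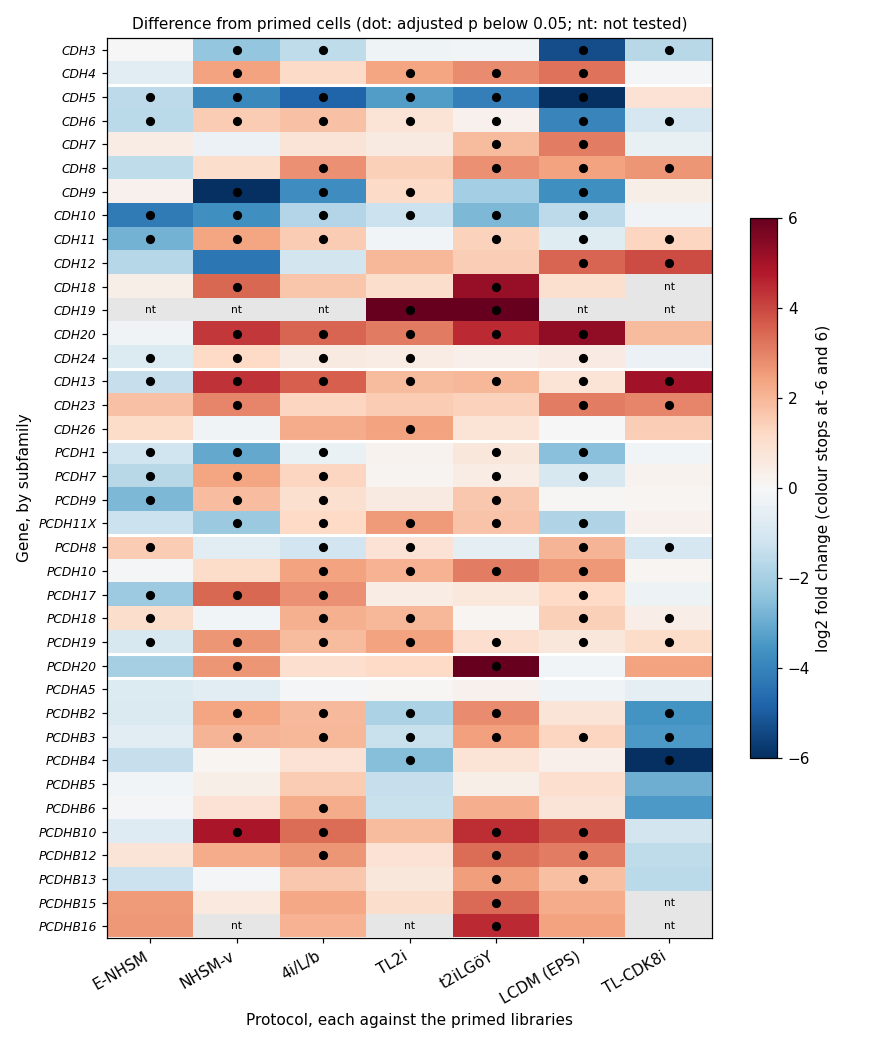
Log2 fold change of 38 cadherin and protocadherin genes (rows, by subfamily) in each of 7 protocols (columns) against 6 Primed libraries, where red is higher, blue is lower, a dot marks an adjusted p under 0.05, and nt a gene not tested. Most of the t2iLGöY column is red, with 23 members called higher and 2 lower, whereas E-NHSM shows 11 called lower.

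P-cadherin, encoded by CDH3, is a type I cadherin of placenta and basal epithelium. Its level in Primed libraries ranged from 72.8 to 154 (median 105). It was 2.16, 4.05, and 2.00 in the LCDM (EPS) libraries, 22.2, 23.2, and 21.04 in NHSM-v, 34.9, 40.6, and 41.3 in 4i/L/b, and 40.7, 38.0, and 30.1 in TL-CDK8i. These 12 libraries all lay under the lowest Primed library. The fall was -5.30 ± 0.30 (log2 fold change ± SE, as in what follows; edgeR adjusted p = 3.1e-09) in LCDM (EPS) and -2.34 ± 0.20 (adjusted p = 1.3e-07) in NHSM-v, with smaller falls in 4i/L/b and TL-CDK8i. In E-NHSM, TL2i, and t2iLGöY the CDH3 level overlapped with Primed cells, with means of 113, 92.9, and 97.7. R-cadherin, encoded by CDH4 and known from retina and brain, rose in 4 protocols. Its level ranged from 0 to 9.16 in Primed libraries, and it was 35.3, 52.2, and 39.6 in LCDM (EPS) and 29.3, 26.8, and 34.7 in t2iLGöY. NHSM-v and TL2i cells, with means of 23.4 and 22.2, also rose, and 4i/L/b cells, with a mean of 9.97, did not pass the test (adjusted p = 0.21). The means of LCDM (EPS), t2iLGöY, NHSM-v, and TL2i did not differ between neighbours in that order (adjusted p from 0.44 to 0.92, in a fit of all 27 libraries, adjusted over genes and the 21 pairs of protocols). LCDM (EPS) was thus the group with the lowest mean of CDH3 and the highest of CDH4.

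CDH6, or K-cadherin, is a type II cadherin of the kidney and of neural fold and crest. It was measured at 354 to 475 in Primed libraries (median 419). In 4i/L/b it was 1395, 1532, and 1429, in NHSM-v 1221, 1190, and 1175, and in LCDM (EPS) 28.4, 24.5, and 26.96. No library of these 3 protocols overlapped with Primed cells. The rise was 1.77 ± 0.09 (adjusted p = 2.7e-09) in 4i/L/b and 1.51 ± 0.09 (adjusted p = 2e-09) in NHSM-v, and the fall in LCDM (EPS) was -3.95 ± 0.13 (adjusted p = 1.2e-11). TL2i cells rose to 737 ± 30.1 (SD, n = 3) and t2iLGöY cells to 489 ± 5.77, the latter by 0.27 ± 0.10 (adjusted p = 0.025), a call that was lost against the Primed libraries of letter K alone (adjusted p = 0.16) and without any 1 of the 3 t2iLGöY libraries or of Primed J1 and J2. E-NHSM cells fell to 135 ± 3.75 and TL-CDK8i cells to 211 ± 17.6. Each of the 7 protocols differed from its neighbour in the order of CDH6 means.

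CDH11, or OB-cadherin, marks mesenchyme and bone-forming cells. Primed libraries held 80.8 to 160 (median 137). The level was 675, 693, and 660 in NHSM-v, 336, 441, and 388 in 4i/L/b, 301, 378, and 335 in t2iLGöY, and 306, 365, and 311 in TL-CDK8i. All 12 libraries lay above the highest Primed library, and the NHSM-v libraries lay above all others. The log2 fold changes in these protocols were 2.35 ± 0.16 (adjusted p = 7.7e-09), 1.53 ± 0.17 (adjusted p = 4.9e-06), 1.40 ± 0.17 (adjusted p = 5.3e-06), and 1.28 ± 0.17 (adjusted p = 2.8e-05) in the same order, and 4i/L/b, t2iLGöY, and TL-CDK8i did not differ between neighbours (adjusted p = 0.31 and 0.84). In E-NHSM, CDH11 fell to 18.6 ± 0.66 (-2.82 ± 0.20, adjusted p = 9.3e-09). LCDM (EPS) cells fell to 78.7 ± 8.88, and TL2i cells stayed within the Primed range with a mean of 115.

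CDH13, or T-cadherin, has no cytoplasmic tail and is held in the membrane by a lipid anchor. It is counted here with the other cadherins. Primed libraries held 6.03 to 15.4 (median 9.60), and the level was 287, 409, and 309 in TL-CDK8i, 225, 192, and 188 in NHSM-v, and 115, 126, and 125 in 4i/L/b. These protocols stand apart from Primed cells by 5.04 ± 0.25 (adjusted p = 2.8e-09), 4.34 ± 0.24 (adjusted p = 1.1e-09), and 3.59 ± 0.25 (adjusted p = 5.5e-08) on the log2 scale. CDH13 also rose in t2iLGöY, to 39.0 ± 3.56, and in TL2i, to 37.4 ± 6.58, a pair that did not differ (adjusted p = 0.85). The rise to 17.5 ± 2.44 in LCDM (EPS) (0.83 ± 0.33, adjusted p = 0.044) was lost without any 1 of its 3 libraries or of Primed J1, K2, and K3. The fall to 3.83 ± 1.22 in E-NHSM (-1.37 ± 0.43, adjusted p = 0.024) was lost without E-NHSM replicate 2 or 3 or Primed J2 or K1. Between TL2i and TL-CDK8i, which differ in their inhibitors, CDH13 was higher in TL-CDK8i by 3.17 ± 0.23 and CDH11 by 1.51 ± 0.16, whereas the difference in CDH6 was -1.81 ± 0.09 (adjusted p = 1.2e-12, 4.3e-09, and 3.8e-16 over genes and pairs).

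A list of mesenchymal markers was also highest in NHSM-v, 4i/L/b, and TL-CDK8i. The sum of PDGFRA, PDGFRB, COL1A1, COL1A2, COL3A1, THY1, and LUM ranged from 1139 to 2411 CPM in Primed libraries and 405 to 453 in E-NHSM. It was 7849 to 8377 in NHSM-v, 11590 to 15044 in 4i/L/b, 8677 to 11227 in TL-CDK8i, 3424 to 4028 in t2iLGöY, 2961 to 5742 in TL2i, and 768 to 994 in LCDM (EPS), with LUM at 0 in Primed, E-NHSM, and t2iLGöY libraries. COL1A1 and COL1A2 made up most of the sum in every group. Of these 7 markers, 5 rose and 0 fell in NHSM-v and in TL-CDK8i, 6 rose and 1 fell in 4i/L/b and in TL2i, 3 rose and 2 fell in t2iLGöY, 1 rose and 4 fell in LCDM (EPS), and 0 rose and 5 fell in E-NHSM. Their part in the cadherin values was not tested. Marker counts here and in the paragraphs that follow are to be read beside the shares of all genes that rose and fell, given above for each protocol. Several of these counts lie near the shares.

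**Figure D2:**
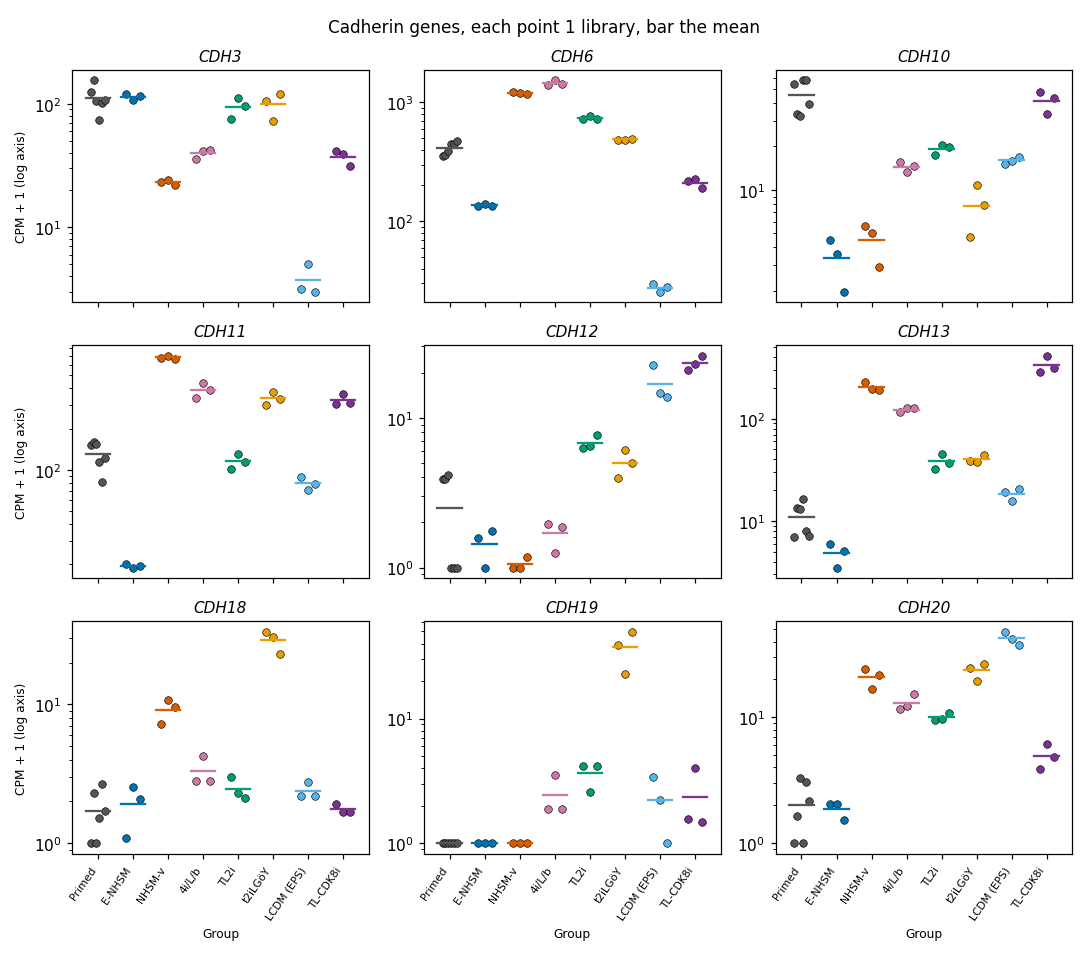
Levels of 9 cadherin genes (CPM + 1 on a log axis) in the 27 libraries, each point 1 library and each bar a group mean. CDH11 and CDH13 are high in NHSM-v, 4i/L/b, and TL-CDK8i, CDH3 and CDH6 are lowest in LCDM (EPS), CDH12 is at 0 in 3 of 6 Primed libraries, and CDH19 is at 0 in all of them.

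The type II cadherins CDH10 and CDH9, both of the brain, are neighbours of CDH6 with no other protein-coding gene between them in the RefSeq annotation of assembly T2T-MMU8v2.0, used here for gene order only. CDH10 was 31.3 to 56.5 in Primed libraries (median 45.5). It fell in 6 protocols, with means from 2.37 in E-NHSM (-4.22 ± 0.36, adjusted p = 7.9e-08) and 3.52 in NHSM-v (-3.70 ± 0.33, adjusted p = 1.6e-07) to 18.3 in TL2i (-1.29 ± 0.22, adjusted p = 0.00028). None of these 18 libraries reached the lowest Primed value. In TL-CDK8i it was 46.4, 32.4, and 42.2, within the Primed range, and TL-CDK8i exceeded TL2i by 1.14 ± 0.32 (adjusted p = 0.0036). CDH9 was 1.83 to 8.92 in Primed libraries, and none of its counts were found in the 3 NHSM-v libraries, so that it was at least 48.8-fold lower there (floor of 3 counts over the group). It also fell in 4i/L/b (mean 0.388) and LCDM (EPS) (mean 0.379), the latter call being lost without LCDM (EPS) replicate 2 or 3. In TL2i the mean was 10.9, an increase of 1.14 ± 0.43 (adjusted p = 0.04) lost without any of 7 libraries, each TL2i library and Primed J1, J2, K1, and K3. CDH6, CDH9, and CDH10 therefore had unlike patterns. In NHSM-v, for example, the CDH6 level rose while CDH9 and CDH10 fell.

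CDH5, or VE-cadherin, is the junctional cadherin of endothelium. Primed libraries held 3.13 to 8.95 (median 7.01), and the level fell in 6 protocols, to means of 2.27 in E-NHSM and 0.0949 to 0.647 in LCDM (EPS), t2iLGöY, TL2i, 4i/L/b, and NHSM-v. In the LCDM (EPS) libraries, 5 CDH5 counts were found in all. The E-NHSM fall (-1.57 ± 0.53, adjusted p = 0.034) was lost without any 1 of its 3 libraries or without Primed J2 or K3. TL-CDK8i libraries held 7.57, 15.8, and 14.7, which did not pass the test against Primed cells (0.85 ± 0.37, adjusted p = 0.071) and exceeded TL2i by 4.27 ± 1.05 (adjusted p = 0.0012). Of 6 endothelial markers (PECAM1, KDR, TEK, TIE1, ENG, and EMCN), 2 rose and 1 fell in TL-CDK8i, with a sum of 156 to 199 CPM against 94.4 to 124 in Primed and 16.5 to 98.7 in the other protocols, and EMCN was at 0 in Primed libraries and in those of all protocols but TL2i and TL-CDK8i. TEK made up most of the TL-CDK8i sum, with a mean of 132 there and 31.3 in Primed cells. The part of these markers was not tested.

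A set of type II genes was low in Primed cells and rose in particular protocols. CDH20 ranged from 0 to 2.29 in Primed libraries and was 46.8, 40.9, and 36.3 in LCDM (EPS), 23.7, 18.5, and 25.7 in t2iLGöY, 23.2, 15.9, and 20.8 in NHSM-v, 10.7, 11.3, and 14.3 in 4i/L/b, and 8.48, 8.74, and 9.90 in TL2i. It rose in all 5, by 3.13 to 5.33 on the log2 scale (adjusted p from 6.5e-06 to 0.0099), and neighbours in this order did not differ (adjusted p from 0.12 to 0.78). CDH7, known from migrating neural crest of the chick, ranged from 0 to 5.76 in Primed libraries and was 30.6, 24.4, and 27.2 in LCDM (EPS) (3.05 ± 0.60, adjusted p = 0.00065). In t2iLGöY it was 9.01, 12.7, and 13.9 (1.89 ± 0.74, adjusted p = 0.042), a call that 6 libraries each ended when left out, every t2iLGöY library and Primed J1, J2, and K2. LCDM (EPS) and t2iLGöY did not differ in CDH7 (adjusted p = 0.12).

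A list of neural markers was also highest in LCDM (EPS) and t2iLGöY. The sum of SOX1, PAX6, NES, MAP2, DCX, TUBB3, ELAVL3, ELAVL4, and STMN2 was 2342 to 2663 CPM in Primed libraries, 6655 to 6963 in LCDM (EPS), and 4079 to 4474 in t2iLGöY. It was 1314 to 1465 in E-NHSM, 2094 to 2205 in TL-CDK8i, and 2837 to 3289 in TL2i, NHSM-v, and 4i/L/b. NES made up most of the sum in all groups but LCDM (EPS) and t2iLGöY. Its mean was 2431 in Primed cells, where the other markers had means from 0.0424 to 74.4, and it was 3087 in LCDM (EPS) and 1849 in t2iLGöY. Of these 9 markers, 9 rose in LCDM (EPS), 8 rose and 1 fell in t2iLGöY and in NHSM-v, 7 rose and 0 fell in 4i/L/b and in TL2i, 3 rose and 1 fell in TL-CDK8i, and 1 rose and 2 fell in E-NHSM, and none was at 0 in all libraries of a group. Their part in the values of CDH4, CDH7, CDH20, and the protocadherins was not tested.

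CDH18 and CDH19 were highest in t2iLGöY cells. CDH19 is known from Schwann cell precursors and glia of the peripheral nerve, and its 6 Primed libraries held 0 counts. The t2iLGöY libraries held 37.9, 21.9, and 48.7, at least 755-fold more than Primed cells (floor of 3 counts over the group). TL2i libraries held 3.14, 1.57, and 3.18, at least 54.9-fold more, and both rises passed the test (adjusted p = 1.6e-07 and 0.001). E-NHSM and NHSM-v libraries had 0 counts as well, and the other protocols had means from 1.21 to 1.43, untested because of low counts. CDH18, a cadherin of brain, was 0 to 1.66 in Primed libraries and 32.3, 29.4, and 22.0 in t2iLGöY (5.25 ± 0.65, adjusted p = 6.5e-06). NHSM-v cells rose to 8.14 ± 1.77 (3.46 ± 0.91, adjusted p = 0.0042), and the other protocols had means from 0.754 to 2.31. For both genes, t2iLGöY differed from the protocol next in order. Of 4 neural crest markers (SOX10, FOXD3, TFAP2B, and ERBB3), 3 rose and 1 fell in t2iLGöY, with a sum of 562 to 890.4 CPM against 70.2 to 115 in Primed libraries, and 4 rose in TL2i, with 435 to 573. The mean of SOX10 was 178 in t2iLGöY and 126 in TL2i against 1.51 in Primed cells. The sum was 36.6 to 276 in the other protocols, where 1 to 3 rose and 1 or 2 fell, and none of the 4 was at 0 in all libraries of a group. Their part in the CDH18 and CDH19 values was not tested.

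CDH12, another type II cadherin of brain, split the Primed libraries. The libraries of letter J held 2.904, 2.91, and 3.14 and those of letter K held 0 counts in all 3. The level was 19.8, 21.8, and 24.8 in TL-CDK8i and 21.5, 13.6, and 12.7 in LCDM (EPS), both above every Primed library. Against all 6 Primed libraries these rises were 3.91 ± 0.94 (adjusted p = 0.0035) and 3.48 ± 1.02 (adjusted p = 0.0098), the latter call being lost without LCDM (EPS) replicate 1, and both being lost with DESeq2. Against the J libraries alone they were 2.85 ± 0.28 (adjusted p = 3e-05) and 2.43 ± 0.36 (adjusted p = 0.00025). TL2i cells, with a mean of 5.81, and t2iLGöY cells, with 3.99, were higher than the K libraries (adjusted p = 4.1e-05 and 0.00065) and did not pass the test against the J libraries (adjusted p = 0.099 and 0.65). NHSM-v cells, with 2 counts, and 4i/L/b cells, with a mean of 0.690, were lower than the J libraries (adjusted p = 0.0049 and 0.036).

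CDH8, a cadherin of brain circuits, ranged from 0 to 4.71 in Primed libraries and rose to means of 11.1 in 4i/L/b, 10.5 in t2iLGöY, 10.4 in TL-CDK8i, and 8.55 in LCDM (EPS). All 4 calls were weak (adjusted p from 0.023 to 0.047), and each was lost when 1 of several libraries was left out, including any of the 3 of 4i/L/b, LCDM (EPS), or TL-CDK8i, 2 of the 3 of t2iLGöY, and Primed J1, J2, or K2 in LCDM (EPS) and J2 or K2 in TL-CDK8i. CDH24 was 29.5 to 42.5 in Primed libraries. It rose to 80.2 ± 3.86 in NHSM-v (1.20 ± 0.15, adjusted p = 6e-06) and by less in 4i/L/b, LCDM (EPS), and TL2i (means 51.7, 48.9, and 47.2), where leaving out LCDM (EPS) replicate 2, or TL2i replicate 2 or 3, ended the call in that protocol. It fell to 19.3 ± 2.45 in E-NHSM (-0.83 ± 0.19, adjusted p = 0.003). CDH23, the cadherin of tip links in hair cells, was low throughout and rose in LCDM (EPS), TL-CDK8i, and NHSM-v to means of 6.23, 5.74, and 5.63 from 0.711 in Primed cells, and the TL-CDK8i and NHSM-v calls were each lost without any 1 of the protocol's 3 libraries. CDH23 did not pass the test of equality over the 7 protocols (edgeR adjusted p = 0.05). With all 8 groups in 1 fit, CDH23 was also called in E-NHSM and TL2i. CDH26, an atypical cadherin of epithelia, rose in TL2i to 9.17 ± 1.86 from 1.77 ± 1.83 (adjusted p = 0.039). Without any TL2i library, or without Primed K1 or K2, this call was lost. In 4i/L/b the CDH26 mean was 8.54, not called in the main fit and not different from TL2i (adjusted p = 0.94 over genes and pairs). There CDH26 was called by DESeq2, by edgeR with no count filter, with all 8 groups in 1 fit, and against J or K libraries alone.

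The delta-1 protocadherins PCDH1, PCDH7, PCDH9, and PCDH11X did not move as a set. All 4 rose in t2iLGöY, where 27.1% of all genes tested did, and 3 fell and 0 rose in E-NHSM and in LCDM (EPS), where 15.1% and 28.9% of all genes fell. PCDH7, which acts in neural fold and axon development, was 90.1 to 137 in Primed libraries (median 119). It was 623, 613, and 615 in NHSM-v and 272, 310, and 285 in 4i/L/b, all above the Primed range, and 38.4, 36.0, and 37.0 in E-NHSM and 60.2, 64.9, and 50.8 in LCDM (EPS), all under it. The log2 fold changes were 2.38 ± 0.11 (adjusted p = 1.3e-10), 1.27 ± 0.12 (adjusted p = 7.9e-07), -1.65 ± 0.14 (adjusted p = 1.1e-07), and -0.98 ± 0.14 (adjusted p = 4.7e-05) in that order. PCDH1, a protocadherin of airway and other epithelia, was 92.3 to 115 in Primed libraries. It fell to 11.3, 17.8, and 9.86 in NHSM-v (-3.06 ± 0.19, adjusted p = 3e-09) and to 21.5, 21.1, and 14.0 in LCDM (EPS) (-2.49 ± 0.16, adjusted p = 9.2e-09). In NHSM-v PCDH1 thus fell where PCDH7 rose, and both fell in LCDM (EPS).

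PCDH1 also fell in E-NHSM, to 47.1 ± 1.94. In t2iLGöY it was 178, 102, and 228, a spread wider than in any other group, and the rise (0.70 ± 0.18, adjusted p = 0.0039) was lost without replicate 3, which had the highest value. The 4i/L/b level of 83.0 ± 12.8 was called lower (adjusted p = 0.0089), and this was lost without replicate 1 or 3. PCDH9 rose from 6.51 ± 1.92 to 23.9 ± 2.73 in NHSM-v (1.85 ± 0.30, adjusted p = 6.9e-05) and to 19.9 ± 3.58 in t2iLGöY (1.64 ± 0.32, adjusted p = 0.00052), and it fell to 1.00 ± 0.68 in E-NHSM. Its rise in 4i/L/b, to 12.9, was lost without replicate 2 or 3. PCDH11X, an X-linked gene, was 2.40 to 9.47 in Primed libraries and 28.6, 34.4, and 28.2 in TL2i (2.58 ± 0.35, adjusted p = 4e-05), with t2iLGöY (mean 16.4) and 4i/L/b (mean 12.0) also called higher. It was lower in NHSM-v and LCDM (EPS), with means of 1.10 and 1.45, and these falls and the 4i/L/b rise were each lost without some single libraries, any 1 of the protocol's 3 in 4i/L/b and LCDM (EPS), replicate 1 or 3 in NHSM-v, and Primed K2 in NHSM-v and LCDM (EPS). The log2 difference of TL-CDK8i from TL2i in PCDH11X was -2.29 ± 0.47 (adjusted p = 0.00016).

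Of the 5 delta-2 protocadherins, 5 rose in LCDM (EPS), where 28.2% of all genes did, and 4 rose in TL2i (25.6%) and in 4i/L/b (26.6%), with 1 lower in 4i/L/b. In NHSM-v (28%) and t2iLGöY (27.1%) 2 rose, in TL-CDK8i 2 rose and 1 fell (22.3% and 23.8%), and in E-NHSM 2 rose and 2 fell (11.1% and 15.1%). Among 5 genes, 2 that rose in NHSM-v, t2iLGöY, or TL-CDK8i is near the background. PCDH19, an X-linked gene of which mutations cause an epilepsy, was 12.1 to 25.6 in Primed libraries (median 17.1). It was 107, 107, and 119 in NHSM-v, 86.1, 102, and 93.2 in TL2i, and 66.5, 64.7, and 71.2 in 4i/L/b. These groups exceeded Primed cells by 2.64 ± 0.21 (adjusted p = 5.9e-08), 2.41 ± 0.22 (adjusted p = 6.5e-07), and 1.90 ± 0.22 (adjusted p = 7.4e-06), and NHSM-v and TL2i did not differ (adjusted p = 0.33). TL-CDK8i, t2iLGöY, and LCDM (EPS) rose to means of 39.3, 34.6, and 27.7, and E-NHSM fell to 9.02 ± 0.78 (-0.97 ± 0.29, adjusted p = 0.02). The LCDM (EPS) and E-NHSM calls were each lost without any 1 library of the protocol, and the LCDM (EPS) call also without Primed J1, J2, or K1.

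PCDH17, known from axon growth in the brain, was 10.4 to 20.2 in Primed libraries. It was 169, 163, and 168 in NHSM-v (3.46 ± 0.18, adjusted p = 4.6e-10) and 106, 106, and 99.9 in 4i/L/b (2.76 ± 0.19, adjusted p = 3.6e-08), and it rose to 34.5 ± 1.19 in LCDM (EPS) and fell to 3.34 ± 1.65 in E-NHSM. The 3 remaining protocols had means from 12.5 to 23.0 and did not pass the test. PCDH18 had another order. Primed libraries held 60.1 to 107, 4i/L/b libraries 374, 418, and 374, TL2i libraries 346, 352, and 311, LCDM (EPS) libraries 240, 214, and 241, and E-NHSM libraries 172, 165, and 202. All 12 libraries lay above the Primed range, with log2 fold changes from 1.07 ± 0.15 in E-NHSM to 2.14 ± 0.15 in 4i/L/b (adjusted p from 4e-08 to 2.7e-05), and NHSM-v and t2iLGöY, with means of 78.6 and 89.4, stayed within it. In TL-CDK8i the mean was 118, called higher at adjusted p = 0.048, and this call was lost without any of 6 libraries, replicates 1 and 2 and Primed J1, J2, J3, and K1. The gene PCDH18 lies next to PCDH10 with 2 protein-coding genes between them in the RefSeq order. PCDH10, of brain circuits, rose from 1.29 ± 0.92 to between 5.47 and 10.7 in LCDM (EPS), t2iLGöY, TL2i, and 4i/L/b. The 4i/L/b call was lost without replicate 2 and the TL2i call without any 1 of its libraries.

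PCDH8, or paraxial protocadherin, acts in cell movements of gastrulation and somite formation. It was 21.6 to 64.0 in Primed libraries (median 40.2), with the J libraries at 30.5, 37.0, and 21.6 and the K libraries at 43.4, 58.8, and 64.0. It was 162, 170, and 195 in LCDM (EPS) (2.04 ± 0.24, adjusted p = 6.9e-06) and 120, 121, and 123 in E-NHSM (1.501 ± 0.23, adjusted p = 6.4e-05), which did not differ (adjusted p = 0.055). E-NHSM and LCDM (EPS) libraries lay above all others. PCDH8 and PCDH18 were the 2 members that rose in E-NHSM, against 11.1% of all genes tested. TL2i cells rose to 77.1 ± 5.96, and 4i/L/b and TL-CDK8i cells fell to 19.9 ± 2.11 and 22.0 ± 4.97. Leaving out TL2i replicate 2 ended the TL2i call, and leaving out TL-CDK8i replicate 2 or taking the J libraries alone (adjusted p = 0.16) ended that of TL-CDK8i. Against the K libraries alone, NHSM-v and t2iLGöY were lower as well (adjusted p = 0.00012 and 0.0014).

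PCDH20, an adjacent gene of PCDH9 in the RefSeq order, stood apart in t2iLGöY. Primed libraries held 0 to 2.35 and t2iLGöY libraries 67.5, 79.8, and 51.3 (6.01 ± 0.56, adjusted p = 3.8e-07), and t2iLGöY differed from NHSM-v, the protocol next in order with a mean of 6.42. The NHSM-v rise (adjusted p = 0.034) was lost without any 1 of its libraries or Primed J2, and TL-CDK8i, with a mean of 5.67, did not pass the test (adjusted p = 0.059). PCDH9, by contrast, was not higher in t2iLGöY than in NHSM-v (adjusted p = 0.56).

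**Figure D3:**
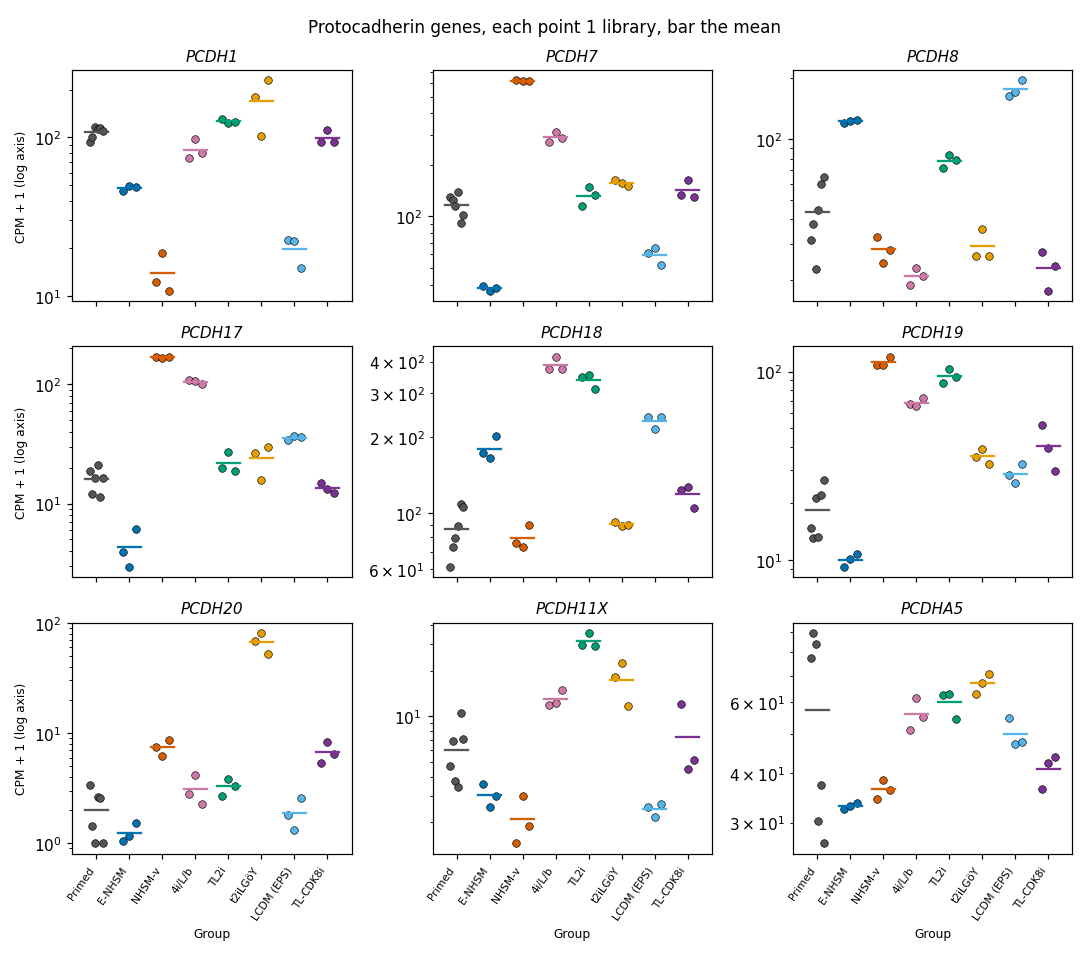
Levels of 9 protocadherin genes (CPM + 1 on a log axis) in the 27 libraries, each point 1 library and each bar a group mean. PCDH7 and PCDH17 are highest in NHSM-v, PCDH18 in 4i/L/b and TL2i, PCDH8 in LCDM (EPS) and E-NHSM, and PCDH20 in t2iLGöY, and PCDHA5 separates 3 Primed libraries from the other 3.

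The protocadherin beta genes lie side by side in 1 cluster, and each is a single exon with a promoter of its own. In sum they lay above the Primed libraries in 4 protocols and under them in TL-CDK8i. Their 13 symbols summed to 24.3 to 43.9 CPM in Primed libraries (median 31.3, mean 33.4 ± 7.62). The sum was 186 to 217 in t2iLGöY (mean 197 ± 17.3), 142 to 162 in NHSM-v (154 ± 10.1), 125 to 139 in 4i/L/b (134 ± 7.61), and 86.2 to 104 in LCDM (EPS) (97.3 ± 9.66). It was 25.4 to 26.97 in E-NHSM and 18.7 to 26.8 in TL2i, which both overlapped with Primed libraries, and 3.00 to 6.998 in TL-CDK8i (4.63 ± 2.10). The first 4 protocols lay above all Primed libraries and TL-CDK8i under all of them, at a ratio to the Primed mean of 5.90 for t2iLGöY and 0.139 for TL-CDK8i. These ratios are of sums and carry no test. In TL-CDK8i libraries, 3 to 7 of the 13 symbols had more than 3 counts, against 6 to 11 in Primed libraries and 10 to 13 in the others.

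**Figure D4:**
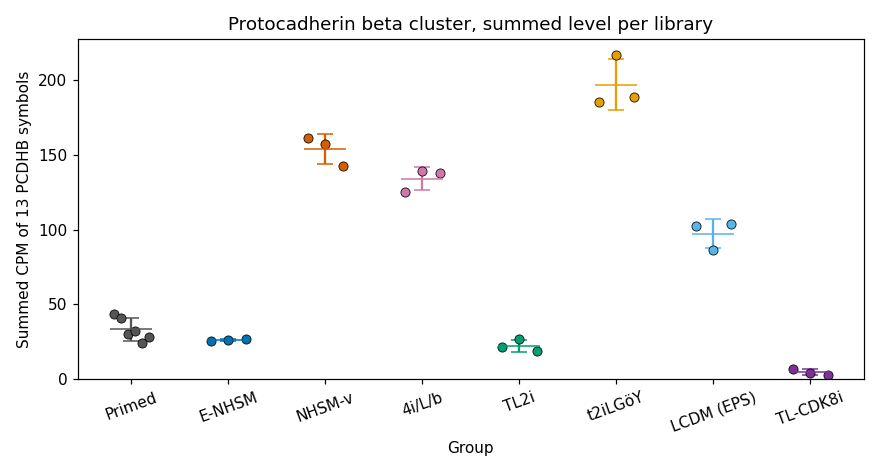
Summed CPM of the 13 PCDHB symbols in each of the 27 libraries, by group. Points are libraries, and the bar and whiskers are the group mean and SD (n = 6 for Primed, 3 for each protocol). The 3 TL-CDK8i libraries lie between 3.00 and 6.998, and the t2iLGöY libraries between 186 and 217.

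Gene by gene, 7 of 11 tested PCDHB symbols rose in t2iLGöY (27.1% of all genes rose) and 6 of 12 in 4i/L/b (26.6%). The numbers were nearer to the background in LCDM (EPS), where 4 of 11 rose (28.2%), and in NHSM-v, where 3 of 9 rose (28%), and 0 fell in these 4 protocols. In TL2i 3 of 10 fell (25.2%) and in TL-CDK8i 3 of 8 (23.8%), and 0 rose. These falls, of few genes, were also nearer to the background. In E-NHSM the edgeR fit with Primed cells called 0 of 11 tested (background 26.2%), with PCDHB4 and PCDHB15 at an unadjusted p under 0.05. DESeq2 called these 2, edgeR in 1 fit of all 8 groups called both and PCDHB2, and edgeR with at least 10 counts in every library called PCDHB4. PCDHB2 was 4.15 to 11.4 in Primed libraries and 52.6, 67.6, and 41.9 in t2iLGöY, 40.5, 40.7, and 38.5 in NHSM-v, and 27.9, 31.9, and 30.2 in 4i/L/b. It was 1.57, 2.85, and 1.77 in TL2i and 1.15, 0.223, and 0.580 in TL-CDK8i. Thus the same gene was called higher in 3 protocols and lower in 2, by 2.85 ± 0.30 in t2iLGöY (adjusted p = 1.4e-06), -1.89 ± 0.50 in TL2i (adjusted p = 0.0061), and -3.59 ± 0.65 in TL-CDK8i (adjusted p = 4e-04). LCDM (EPS) libraries, at 12.4, 13.5, and 13.8, also lay above the Primed range but did not pass the test (adjusted p = 0.071). PCDHB3, its neighbour, was 2.14 to 13.5 in Primed libraries with means of 49.1 in t2iLGöY, 38.8 in NHSM-v, 37.9 in 4i/L/b, 22.7 in LCDM (EPS), and 0.860 in TL-CDK8i, all called. Its fall to 3.61 in TL2i (adjusted p = 0.034) was lost without any TL2i library or Primed J1, J2, or K3. PCDHB4 was 3.37 to 9.94 in Primed libraries. A single count was found in the 3 TL-CDK8i libraries against 371 in Primed libraries, a ratio of 0.00602 (exact 95% counting interval 0.000152 to 0.0338), and TL2i cells had a mean of 1.06 (-2.56 ± 0.61, adjusted p = 0.0031).

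PCDHB10 was 0 to 3.18 in Primed libraries and 49.6, 55.8, and 42.3 in NHSM-v, 35.8, 34.7, and 34.1 in t2iLGöY, 20.9, 20.9, and 26.0 in LCDM (EPS), and 14.3, 16.2, and 19.7 in 4i/L/b. These 12 libraries lay far above the Primed range, with rises from 3.33 ± 0.80 in 4i/L/b to 4.89 ± 0.61 in NHSM-v (adjusted p from 6.4e-06 to 0.0029). Unlike PCDHB2 and PCDHB3, PCDHB10 was not lower in TL2i, where its mean was 5.98 (adjusted p = 0.12). PCDHB12 rose to 12.4 in t2iLGöY, 10.6 in LCDM (EPS), and 8.005 in 4i/L/b from 1.24 in Primed cells, and PCDHB13 to 7.96 in t2iLGöY and 5.04 in LCDM (EPS) from 1.42. PCDHB15 and PCDHB16 rose in t2iLGöY, to 6.12 and 5.50, and PCDHB6 in 4i/L/b, to 9.86 from 2.07. In t2iLGöY the PCDHB6 mean was 8.97, not called in the main fit and not different from 4i/L/b (edgeR adjusted p = 0.91 over genes and pairs). There PCDHB6 was called by DESeq2, by edgeR with all 8 groups in 1 fit, and against the K libraries alone. The t2iLGöY levels of PCDHB15 and PCDHB16 did not differ from those of E-NHSM, the next in order (adjusted p = 0.51 and 0.27), and PCDHB15 was also called in E-NHSM, 4i/L/b, and LCDM (EPS) by DESeq2 and by edgeR with all 8 groups in 1 fit. The call of PCDHB13 in LCDM (EPS) was lost without any 1 of its 3 libraries or of Primed J1, J2, K2, and K3, that of PCDHB6 in 4i/L/b without any 1 of its 3 or of Primed K2 and K3, that of PCDHB12 in 4i/L/b without any 1 of its 3, and that of PCDHB16 without t2iLGöY replicate 3 and with DESeq2. PCDHB5, with means from 0.301 to 6.88, was called in 0 comparisons by the edgeR fits of 1 protocol with Primed cells, with 1 unadjusted p under 0.05 (TL-CDK8i), and in 2 (4i/L/b and TL-CDK8i) both by DESeq2 and by edgeR with all 8 groups in 1 fit. In the RefSeq order, PCDHB1 to PCDHB5 follow each other with no other protein-coding gene between them, as do PCDHB7, PCDHB8, PCDHB16, and PCDHB10. The beta genes are similar in sequence, and how reads shared between them were counted is not given in the sources used here, so values of single PCDHB genes are less certain than their sum.

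The tables held 1 alpha symbol, PCDHA5, and 2 gamma symbols, PCDHGB1 and PCDHGB3. Alpha transcripts share constant exons, and it is not known whether reads on them were counted to PCDHA5. PCDHA5 was called in 0 of 7 comparisons with all Primed libraries by DESeq2 and by the edgeR fits of 1 protocol with Primed cells, with 1 unadjusted p under 0.05 (E-NHSM), and in 2 (E-NHSM and NHSM-v) by edgeR with all 8 groups in 1 fit. The Primed libraries were spread by letter. The J libraries held 76.5, 88.5, and 83.0 and the K libraries 29.4, 36.3, and 25.6, so K was lower than J by -1.45 ± 0.17 (edgeR adjusted p = 0.00011). The 7 protocols had means from 31.9 in E-NHSM to 65.9 in t2iLGöY. Against the J libraries alone PCDHA5 was lower in 6 protocols, and against the K libraries alone it was higher in LCDM (EPS), t2iLGöY, TL2i, and 4i/L/b. Neighbouring protocols in the order did not differ (adjusted p from 0.43 to 0.80), but the test of equality over the 7 protocols was called (edgeR adjusted p = 0.0102). Between the letters, 5 of 35 members tested were called (background 3.73%), PCDHA5, CDH6, CDH11, CDH12, and PCDH8. Direction and call of CDH11 against each letter were the same in 6 protocols, and in TL2i it was lower than J (adjusted p = 0.0091) and did not pass the test against K (adjusted p = 0.51).

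The 11 members under 5 CPM in every group were CDH15, CDH16, CDH17, CDH22, PCDH12, PCDH15, PCDHB1, PCDHB7, PCDHB8, PCDHGB1, and PCDHGB3, with a highest group mean of 2.84, that of PCDH12 in TL-CDK8i. 3 of them were called in any comparison. PCDH12, a protocadherin of endothelium and placenta, had 2 counts in the Primed libraries and 82 in each of TL2i and TL-CDK8i, a ratio of 49.7 (exact 95% counting interval 13.3 to 417) and 91.6 (24.6 to 769). CDH17, the cadherin of intestine and liver, had 0 counts in Primed libraries and 48 and 70 in 4i/L/b and TL2i, at least 35.5-fold and 29.5-fold higher. Of 5 trophoblast markers (GATA3, CGA, VGLL1, KRT7, and TP63), 1 rose in TL2i and 1 in TL-CDK8i, with sums of 12.0 to 18.9 and 134 to 228 CPM against 1.57 to 8.31 in Primed libraries, and CGA and VGLL1 were at 0 in Primed and TL-CDK8i libraries. Most of the TL-CDK8i sum was KRT7 alone (mean 162), and most of the TL2i sum was GATA3 (mean 11.7). Of 5 endoderm markers (SOX17, FOXA2, GATA6, HNF4A, and AFP), 3 rose and 1 fell in TL2i and 1 rose and 1 fell in 4i/L/b, with sums of 47.4 to 82.2 and 18.4 to 19.5 against 10.7 to 17.9. The part of these markers in the PCDH12 and CDH17 values was not tested. Of 5 skeletal muscle markers (MYOD1, MYF5, MYOG, DES, and PAX7), 0 or 1 rose and 0 or 1 fell in each protocol, and MYOD1 was at 0 in all libraries but those of TL-CDK8i, where its mean was 0.109. PCDHB7 rose in 4i/L/b, to a mean of 2.46.

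**Figure D5:**
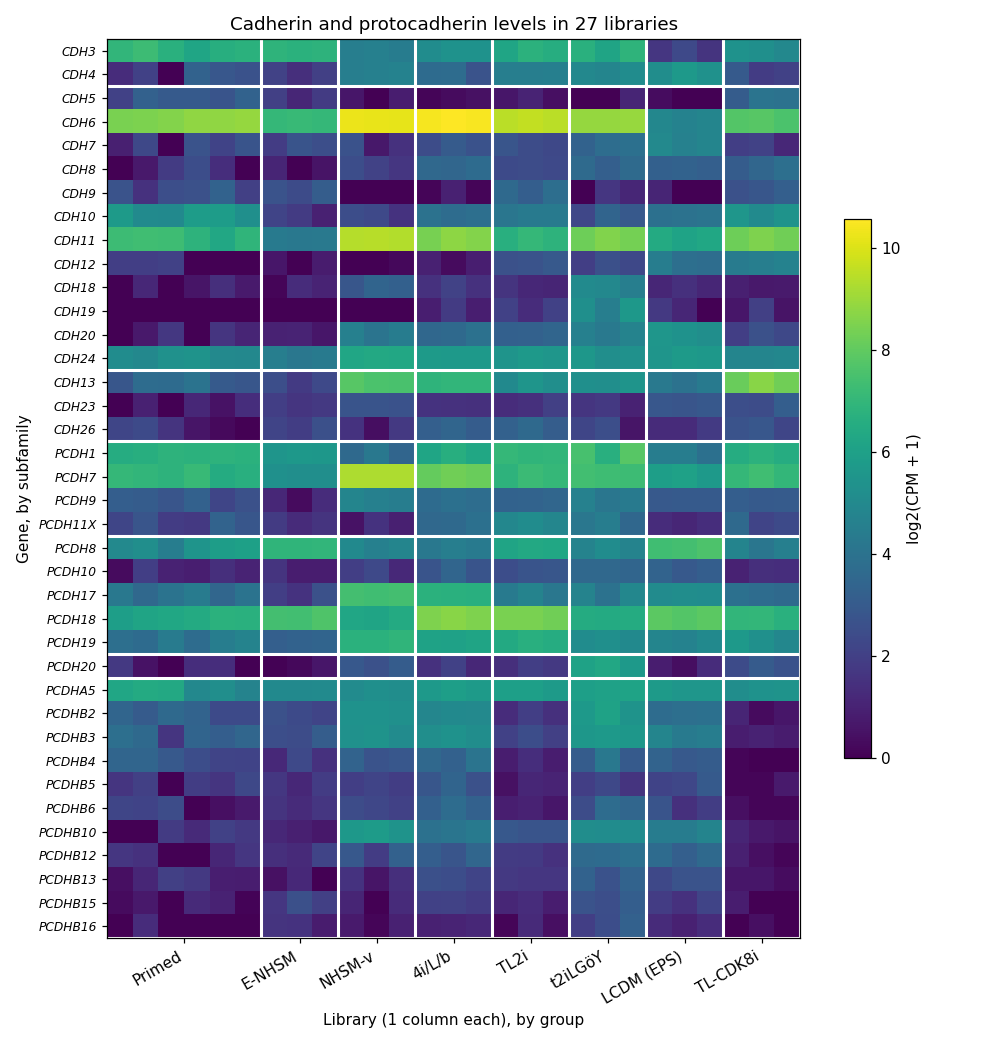
Levels of the 38 members that reached 5 CPM in a group, as log2(CPM + 1), in the 27 libraries (columns) by group, with genes by subfamily. Levels are to be read along a row, since CPM is not divided by transcript length. Dark colours are low levels. The 10 PCDHB rows have their lowest means in TL-CDK8i and are also low in Primed, E-NHSM, and TL2i, while the CDH5 row is dark in all groups but Primed, E-NHSM, and TL-CDK8i.

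The 7 protocols form 21 pairs, and each number of differing members out of 38 is given with the share of all genes tested that differed. These 38 were chosen for their mean level in the same groups, whereas the genes behind the shares passed the count filter only. How far this choice raised the numbers was not tested, so they cannot be judged against the shares. The highest number was 31, between t2iLGöY and TL-CDK8i, of which 6 were higher in TL-CDK8i (54.9%), and the lowest was 15, between 4i/L/b and t2iLGöY (37.3%). E-NHSM differed from 4i/L/b in 30 (57.2%), from t2iLGöY in 30 (59.3%), from LCDM (EPS) in 27 (58.1%), from TL-CDK8i in 27 (49.7%), from TL2i in 23 (52.6%), and from NHSM-v in 22 (61.1%). NHSM-v differed from TL-CDK8i in 27 (51.5%), from TL2i in 26 (44%), from LCDM (EPS) in 22 (47.6%), from t2iLGöY in 21 (42.2%), and from 4i/L/b in 19 (33.6%). 4i/L/b differed from TL-CDK8i in 22 (45.1%), from LCDM (EPS) in 19 (41.7%), and from TL2i in 18 (24.1%). LCDM (EPS) differed from TL-CDK8i in 29 (55.3%) and from TL2i in 22 (43%), and t2iLGöY differed from TL2i in 18 (42.6%). TL2i and TL-CDK8i differed in 20 members, of which 4 were higher in TL-CDK8i, namely CDH5, CDH10, CDH11, and CDH13 (45.1% of all genes). Lower in TL-CDK8i were the type I genes CDH3 and CDH4, CDH6 and CDH24, all 5 delta-2 genes, PCDH11X, and 6 PCDHB genes. t2iLGöY and LCDM (EPS) differed in 17 members, 4 of them higher in LCDM (EPS) (31.3% of all genes). For 11 members the highest protocol differed from the next in order.

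Genes that act with cadherins were described from lists, and no list was tested as a set. Of all genes tested, 22.3 to 28.2% rose and 23.8 to 30.6% fell in each protocol but E-NHSM, where 11.1% rose and 15.1% fell. The list counts here and in the paragraphs that follow are to be read beside these shares, and several lie near them. Among catenins and actin linkers, with 10 of 11 symbols found, CTNNA2, the alpha-catenin of neurons, rose in 5 protocols, from 3.56 CPM in Primed cells to 35.5 to 59.8 in LCDM (EPS), t2iLGöY, TL2i, and 4i/L/b and 9.22 in TL-CDK8i. CTNND2, the delta-catenin of neurons, rose in 6, to 256 CPM in LCDM (EPS) from 30.5. JUP, or plakoglobin, fell in 5, to 23.6 in E-NHSM from 93.6. The numbers of the 9 or 10 tested genes of this list that rose and fell were 1 and 3 in E-NHSM, 5 and 1 in NHSM-v, 6 and 2 in 4i/L/b, 4 and 3 in TL2i, 5 and 4 in t2iLGöY, 3 and 5 in LCDM (EPS), and 4 and 2 in TL-CDK8i. Of 25 symbols of the other cadherin superfamily, 16 to 18 of them tested, between 8 and 11 rose and 2 to 4 fell in each protocol but E-NHSM, where 2 rose and 6 fell. The giant cadherin FAT3 rose in 6 protocols, from 9.87 CPM to 149 in NHSM-v, and fell in E-NHSM. FAT4, the partner of DCHS1 in planar polarity, rose in 5, to 192 in t2iLGöY from 9.68, and fell to 0.970 in E-NHSM. CLSTN2, a calsyntenin of synapses, rose in 6, from 0.318 to 57.4 in NHSM-v.

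In the WAVE complex, with 9 genes, 0 to 5 rose and 0 to 4 fell per protocol. CYFIP2 rose in 6, from 52.9 CPM to 263 in NHSM-v, and NCKAP1 fell in 5, to 241 in TL2i from 406. Of 8 genes of cadherin shedding and cleavage, 1 to 5 rose and 0 to 3 fell per protocol. ADAM10 fell in 5 protocols and rose in NHSM-v, and ADAM17 rose in 6. Among 11 factors of the clustered loci (CTCF, cohesin, and chromatin factors), LCDM (EPS) had 7 that rose and 1 that fell (28.2% and 28.9% of all genes). In t2iLGöY 4 rose and 3 fell, near the shares of all genes (27.1% and 27.2%). In the 5 other protocols 0 to 2 rose and 4 to 6 fell. STAG2, a cohesin subunit, fell in all 7, by 0.40 to 1.04 on the log2 scale, and SMC3 and NIPBL fell in 5 and rose in LCDM (EPS).

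Among 6 repressors of classical cadherins, SNAI1 fell in all 7 protocols, from 23.8 CPM to between 0.695 in NHSM-v and 11.1 in TL2i. SNAI2 rose in 5, to 79.4 in t2iLGöY from 6.89, and fell in LCDM (EPS). ZEB1 rose in 6, to 302 in LCDM (EPS) from 35.7, and fell to 6.003 in E-NHSM. Of the 6, 1 rose and 4 fell in E-NHSM, 2 rose and 3 fell in LCDM (EPS), and 3 or 4 rose and 1 or 2 fell in each of the others.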

How the data were processed

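RNA-seq libraries were prepared by the authors with a directional mRNA kit and sequenced as single reads. The submitters' processing notes name bcl2fastq, cutadapt, HISAT2, and HTSeq, and versions, genome build, and annotation are not given in the sources used here. The values are counts per gene as deposited by the authors in 8 tables, not normalized, for 17967 gene symbols. Columns were assigned to groups by their names, and Primed columns carry the letters J and K, whose meaning is not given. Total counts ranged from 7111886 to 20760914 per library.

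Differences between each protocol (n = 3) and Primed cells (n = 6) were tested with edgeR 4.0.16 in R 4.3.3 (TMM, filterByExpr, quasi-likelihood F test, Benjamini-Hochberg over all genes tested, called at an adjusted p under 0.05). Equality of the 7 protocols and their 21 pairs were tested in 1 fit of all 27 libraries. CPM was computed on TMM-scaled library sizes, and SEs from the fold change and the F statistic. Members with a mean of at least 5 CPM in 1 or more groups were described singly. From each list of genes that are no members, at most 3 were named, those with the largest fold change among genes called in at least 5 comparisons in 1 direction. Members and lists were chosen with earlier results of these data known. Floors of 3 counts and 95% intervals cover counting error only. Alternatives were upper-quartile scaling, DESeq2 1.42.0, other filters, a minimum fold change, a fit of all 8 groups, each letter of Primed columns alone, and leaving out each library in turn. Scripts were tested on simulated data. RefSeq (T2T-MMU8v2.0) gave gene order only, with 45 of 49 members matched. Marker lists were summed in CPM, and 1 gene of the neural crest list is not reported here.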

Additional observations from a re-analysis of the deposited data

Results flagged for a closer look

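PCDHB16 was at 1.51 CPM in the Primed library J2 and at 0 in the other 5 Primed libraries, so its distance to the nearest library was the whole range of the group (a ratio of 1, above the critical value of Dixon's test for 6 libraries). With 5 libraries at 0 this ratio is 1 for any value in the other, so the mark says only that 14 counts were found in J2 alone. It was the only one marked among 39 groups of Primed values examined. PCDH15 and PCDHB7 also had counts in J2 alone, 9 and 5, and were not marked. The usual chance rate of about 1 in 20 need not hold for counts that are mostly 0.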

How the results depend on the processing

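Of 141 calls of single members against Primed cells, 98 held under every alternative that gave a value, and 0 changed direction. Calls lost numbered 17 with a log2 fold change of at least 1, 12 against the J libraries alone, 5 against the K libraries alone, 3 with DESeq2, 3 with all 8 groups in 1 fit, and 0 with upper-quartile scaling or no filter. With at least 10 counts in every library, fewer members were tested and the number called fell to 17 in 4i/L/b, 15 in LCDM (EPS), 13 in NHSM-v, 12 in t2iLGöY, 13 in TL2i, 8 in TL-CDK8i, and 13 for the 7 protocols among themselves. With all 8 groups in 1 fit, 21 were called in E-NHSM and 22 in TL-CDK8i, and the cause was not tested. Leaving out 1 library at a time gave 10 to 14 called members in E-NHSM, 19 to 23 in NHSM-v, 20 to 30 in 4i/L/b, 13 to 21 in TL2i, 20 to 27 in t2iLGöY, 19 to 27 in LCDM (EPS), 10 to 15 in TL-CDK8i, and 36 to 40 for the 7 protocols among themselves. The lowest TL2i value, 13 against 20, was that without TL2i replicate 2. Shares of all genes called were not taken for these alternatives, so their counts cannot be set against a background. No paired analysis was possible because the Primed columns carry letters and numbers that the labels do not tie to the replicates of any protocol. A count of 0 in a library allows up to 3 counts, or 0.141 to 0.429 CPM, so lower levels could not be told from none.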
